A study of Mus musculus with 6 samples.

Results

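Purinergic receptors of neurons and glia, which sense extracellular nucleotides, were examined in dorsal root ganglia. The 10 receptor genes were taken by symbol from the 36793 gene identifiers of the deposited table, and all 10 were found and passed the filter on low counts. P2rx2, P2rx3, P2rx4, P2rx5, P2rx6 and P2rx7 encode P2X subunits, and P2ry1, P2ry2, P2ry12 and P2ry14 encode P2Y receptors. RNA came from lumbar dorsal root ganglia of 6 mice. These ganglia hold the cell bodies of sensory neurons, wrapped by satellite glia, and axons ensheathed by Schwann cells. The knockout group (KO, libraries 4, 5 and 6) is labelled as lacking the NMDA receptor, and the series title places the loss of its GluN1 subunit in Schwann cells. The wild-type group (WT, libraries 1, 2 and 3) keeps it. The labels give no Cre line, strain, sex or age for either group.

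ATP that leaves a cell can open P2X channels, which are trimers of subunits and pass sodium and calcium ions, or bind P2Y receptors, which signal through G proteins. P2X3 is a hallmark of small non-peptidergic nociceptors, the pain-sensing neurons that make little neuropeptide, and can join with P2X2 in one channel. P2X4 and P2X7 are known from immune cells and glia, P2X7 also from satellite glia, the cells that wrap sensory neuron cell bodies. P2Y1 and P2Y12 bind ADP, P2Y2 binds ATP and UTP, and P2Y14 binds UDP-sugars. Enzymes outside the cell degrade ATP stepwise to adenosine.

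KO libraries 5 and 6 stood apart from the other pairs by their likeness. Over 10258 genes with whole counts their mean chi-square per gene was 1.15 and 0 genes differed at an adjusted p of 0.05, whereas this mean was 13.2 to 104 for the other 14 pairs, with 3382 to 7317 differing genes. Their counts came close to sampling noise, although the labels number them as separate mice. They were counted as 1 sample by summing, so n = 2 for KO and n = 3 for WT. Libraries held 28526704 to 36249163 expected counts. Grin1, which encodes GluN1, was at 81.5, 116 and 116 CPM in KO libraries 4, 5 and 6, against 68.6, 114 and 74.4 CPM in WT libraries. CPM are counts per 1000000 after TMM scaling, and the log2 fold change of 0.21 did not pass (edgeR quasi-likelihood test, adjusted p = 0.812). Although the cell type label reads Schwann cells, the 8 neuron markers summed to 12278 to 14677 TPM in KO and 10528 to 13765 TPM in WT libraries, so neurons were part of the tissue. A whole ganglion includes cells that keep the gene, and its level therefore does not check the labels.

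Promoter windows are shown for P2ry1, which was lower in every KO library, for P2rx7, which was higher in every KO library, and for P2rx4, the neighbour of P2rx7 downstream on the same strand. P2rx7 ends 16111 bases before P2rx4 starts. Each window has 300 bases, 250 before and 50 after the RefSeq start on GRCm38.p6, written 5′ to 3′ on the gene's strand. Capitals mark matches to the motifs listed after them.
P2ry1 (chr3:61002535-61002834, plus strand): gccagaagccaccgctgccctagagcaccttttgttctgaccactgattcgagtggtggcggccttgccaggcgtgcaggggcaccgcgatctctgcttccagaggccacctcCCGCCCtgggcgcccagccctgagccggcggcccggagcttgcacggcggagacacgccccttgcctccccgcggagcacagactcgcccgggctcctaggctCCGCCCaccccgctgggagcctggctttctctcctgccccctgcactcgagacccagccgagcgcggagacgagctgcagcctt
P2rx7 (chr5:122643677-122643976, plus strand): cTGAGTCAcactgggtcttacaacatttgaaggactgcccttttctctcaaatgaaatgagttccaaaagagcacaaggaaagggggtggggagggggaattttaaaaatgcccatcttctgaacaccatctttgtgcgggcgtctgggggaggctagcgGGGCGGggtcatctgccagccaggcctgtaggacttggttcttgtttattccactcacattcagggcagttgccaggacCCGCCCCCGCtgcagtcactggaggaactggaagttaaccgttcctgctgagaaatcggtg
P2rx4 (chr5:122707294-122707593, plus strand): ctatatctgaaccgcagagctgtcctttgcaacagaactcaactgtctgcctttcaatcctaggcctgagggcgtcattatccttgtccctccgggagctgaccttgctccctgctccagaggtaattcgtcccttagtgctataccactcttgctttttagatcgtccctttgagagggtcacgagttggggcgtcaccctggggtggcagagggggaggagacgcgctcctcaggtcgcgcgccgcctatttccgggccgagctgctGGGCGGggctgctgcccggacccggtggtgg
RefSeq windows were matched for 7 of the 10 receptors, 12 windows in all, and P2rx2, P2rx3 and P2rx5 had no match. The P2ry1 window has 70.7% GC and 25 CpG, the P2rx7 window 53.3% and 8, and the P2rx4 window 60.3% and 18. Over all 32851 windows of this length the median is 52.7% GC and 7 CpG.

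Both strands were searched for GGGCGG (GC box), TGANTCA (AP-1), GCGNGGGCG (EGR), TGTGGT (RUNX), TGACGTCA (CRE) and the start-site box TATAAA. The P2ry1 window holds 2 GC boxes, the P2rx4 window 1, and the P2rx7 window 2, the second of which overlaps its 1 EGR match. An AP-1 match lies at the 5′ end of the P2rx7 window. P2rx7 has a second RefSeq window, not shown (chr5:122650133-122650432), which holds none of the motifs searched. The GC box is present in 35.7% of all windows, AP-1 in 7.81% and EGR in 5.55%. None of the 3 windows shown holds the letters of RUNX, CRE or the start-site box, which occur in 16.8%, 1.79% and 13.6% of all windows. Among the 12 receptor windows, 6 hold a GC box and 3 an AP-1 match, the other two of which are starts of P2ry14.

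Transcript levels differed widely among the 10 receptors. TPM, transcripts per 1000000, allow for length and are used wherever genes are compared. P2rx3 was highest, at 224, 252 and 246 TPM in KO libraries 4, 5 and 6, against 263, 237 and 287 TPM in WT libraries 1, 2 and 3. In KO ganglia P2rx4 followed at 39.1 ± 0.424 TPM, then P2rx6 at 29.6 ± 5.14 and P2ry1 at 29.5 ± 0.909 TPM (SD, n = 2). In WT ganglia P2ry1 was the second, at 52.3 ± 4.21 TPM, before P2rx4 at 42.9 ± 4.52 and P2rx6 at 25.8 ± 1.56 TPM (SD, n = 3). The ranges of P2rx6 and P2ry1 overlapped in KO libraries, whereas those of P2ry1, P2rx4 and P2rx6 were separate in WT libraries. P2rx7, P2ry2 and P2rx5 came next in both groups, each overlapping its neighbour among these 3. P2ry12 then stood before P2rx2 in KO, at 8.36 ± 1.67 and 4.12 ± 0.205 TPM (SD, n = 2), with no overlap. In WT P2rx2 stood before P2ry12, at 7.86 ± 1.04 and 7.47 ± 1.21 TPM (SD, n = 3), and their ranges overlapped. P2ry14 was lowest in both, at 2.95 ± 0.23 TPM in KO (n = 2) and 2.85 ± 0.63 TPM in WT (n = 3).

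**Figure D1:**
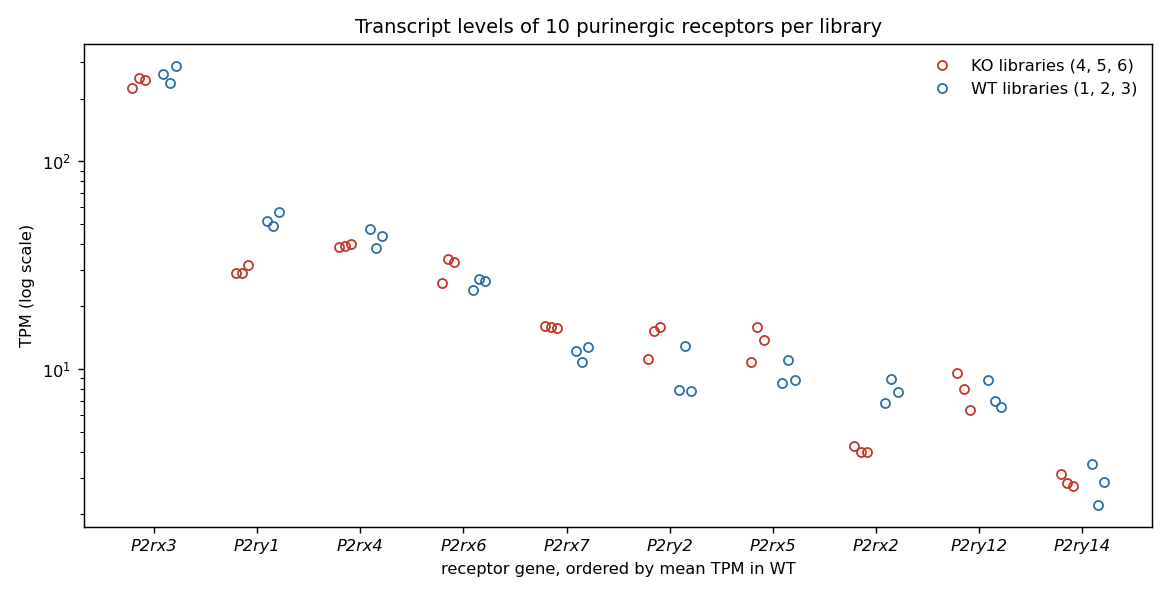
TPM of each receptor in each library on a log axis, KO libraries left of WT libraries, with genes ordered by their WT mean. P2rx3 lies above all others in every library, and P2ry1 is at 28.9 to 31.5 TPM in KO against 48.7 to 57.0 TPM in WT.

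The comparison of KO with WT asks how receptor levels differ once the receptor for glutamate is deleted in Schwann cells. P2ry1 was at 56.6% and P2rx2 at 51.8% of the WT level in KO ganglia, and P2rx7 was at 137%. The other 7 receptors had log2 fold changes of -0.15 to 0.45. By the edgeR quasi-likelihood test with Benjamini-Hochberg adjustment 0 of 10 receptors passed an adjusted p of 0.05, where 0.0952% of the 16810 genes tested did, 0.0595% as higher and 0.0357% as lower. Limma-voom called 0 of the 10 as well, and 13 of the 16810 genes tested. DESeq2 on the 5 samples called 2, P2rx2 and P2ry1, where it called 1.30% of its genes. With all 6 libraries as separate samples edgeR called the same 2 genes and 0.871% of all, and DESeq2 called 3 receptors, P2rx7 being the third, and 5.44% of all. Without the filter on low counts edgeR called P2ry1 and 0.323% of all. An unadjusted p under 0.05 was reached by 4 of 10, P2ry1, P2rx2, P2rx7 and P2rx5, and by 9.16% of all genes. Over the 6 libraries the groups did not overlap for 3 of 10, against 24.2% of all genes. Over the 5 samples 1 receptor was higher and 3 were lower without overlap, P2rx4 being the one added. The shares of all genes were 11.8% and 15.5%.

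**Figure D2:**
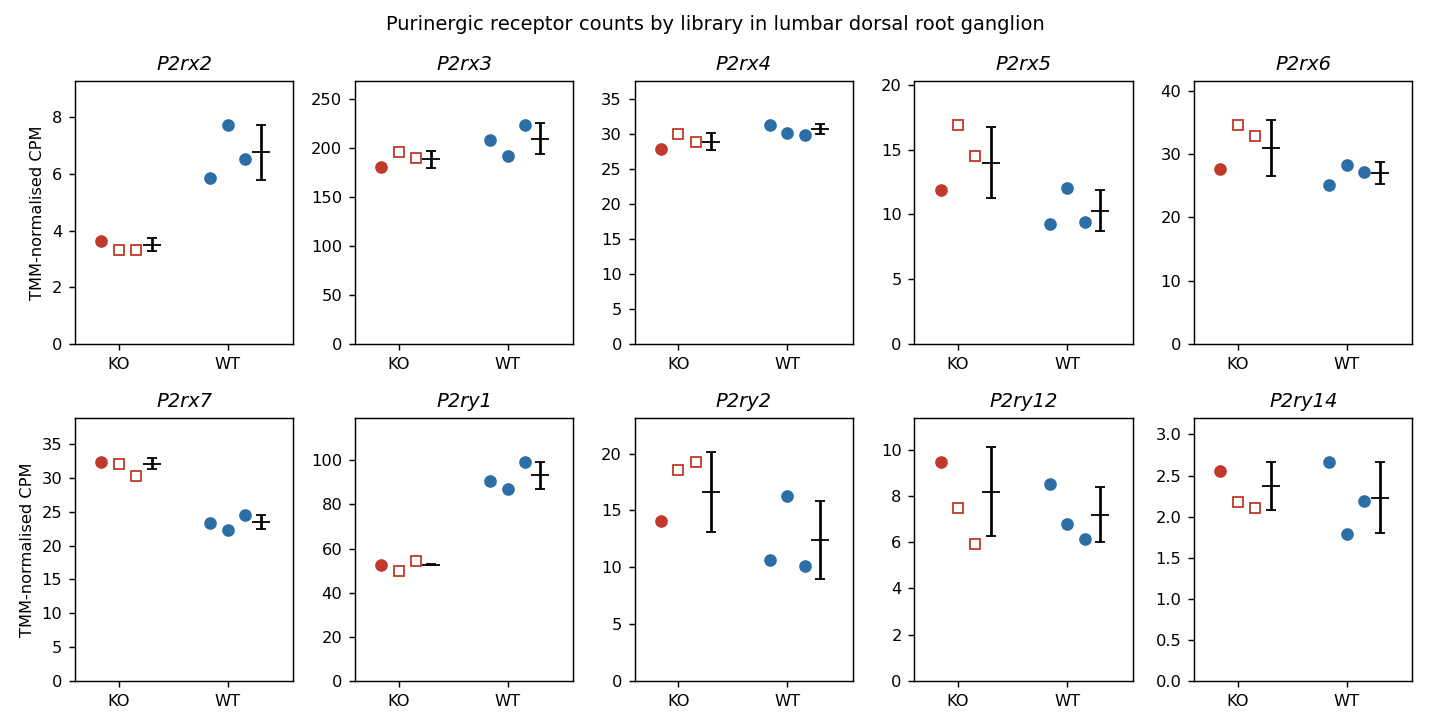
TMM-normalised CPM of the 10 receptors, 1 panel per gene with its own axis from 0, KO left of WT; open squares are KO libraries 5 and 6, which count as 1 sample, and bars are mean ± SD over samples. KO libraries lie below WT libraries for P2rx2 and P2ry1, above them for P2rx7, and overlap them for the other 7.

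Among the P2X channels of neurons, P2rx2 had 107, 116 and 106 counts in KO libraries 4, 5 and 6, against 196, 246 and 191 counts in WT libraries. Every KO library was below every WT library. P2rx2 (chromosome 5, 110339812 to 110343212, GRCm38, minus strand) averaged 3.51 ± 0.221 CPM in KO (SD, n = 2) and 6.76 ± 0.972 CPM in WT (SD, n = 3). On the log2 scale the difference was -0.95 ± 0.18 (standard error), and the edgeR adjusted p was 0.241. It passed with 6 separate libraries (adjusted p = 0.0405) and in DESeq2 on the 5 samples (adjusted p = 0.00842).

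P2rx3, the main channel subunit of non-peptidergic nociceptors (chromosome 2, 84998583 to 85037462, minus strand), was at 181, 196 and 190 CPM in KO libraries, against 209, 192 and 224 CPM in WT libraries. KO library 5 lay above WT library 2, so the groups overlapped. On the log2 scale the difference was -0.15 ± 0.11 (standard error, edgeR adjusted p = 0.701). The 5′ end of P2rx3 overlaps the opposite-strand gene Ssrp1, and the strand setting of the counting is not given in the sources used here.

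Because P2X3 and P2X2 can form one channel, their transcript ratio was set out by library. P2rx3 exceeded P2rx2 by 52.7, 63.5 and 61.9 times in TPM in KO libraries 4, 5 and 6, against 38.3, 26.5 and 36.8 times in WT libraries. Every KO library had a higher ratio than every WT library. P2rx2 alone did not overlap between the groups either, so this ratio is not a separate result. Summed over 7 P2X genes, P2rx1 included, TPM came to 322, 361 and 352 in KO and 362, 333 and 386 in WT libraries, which overlap.

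Within that sum P2rx3 made up 69.8 ± 0.0437% in KO (SD, n = 2) and 72.7 ± 1.52% in WT (SD, n = 3), a difference of -2.87 percentage points in TPM that was -4.77 points when shares were taken from CPM. P2rx2 made up 1.22 ± 0.15% in KO and 2.20 ± 0.423% in WT. P2rx7 made up 4.74 ± 0.398% in KO and 3.31 ± 0.0693% in WT. With 2 against 3 samples the two-sided exact permutation test cannot go below p = 0.200, which these 3 shares and that of P2rx5 reached among 7 tested (adjusted p = 0.350).

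P2rx5 and P2rx6 encode subunits that, in rats, give weak or no current when expressed alone. P2rx5 (chromosome 11, 73160421 to 73172685, plus strand) was at 11.9, 16.9 and 14.5 CPM in KO libraries, against 9.23, 12 and 9.43 CPM in WT libraries. KO library 4 lay just under WT library 2. The log2 fold change of 0.45, with a standard error of 0.18 (edgeR adjusted p = 0.538), was 0.22 without KO libraries 5 and 6. P2rx6 (chromosome 16, 17561885 to 17577800, plus strand) was at 27.6, 34.6 and 32.8 CPM in KO and 25.1, 28.3 and 27.1 CPM in WT libraries. Its log2 fold change of 0.20, with a standard error of 0.13 (edgeR adjusted p = 0.677), was 0.04 without KO libraries 5 and 6. It is the 1 receptor of the 10 whose expected counts were not whole in any library. P2rx6 overlaps Slc7a4 on the other strand.

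Of the channels known from immune cells and glia, P2rx7 had 953, 1119 and 967 counts in KO libraries 4, 5 and 6, against 777, 710 and 716 counts in WT libraries. All KO libraries were above all WT libraries. P2rx7 (chromosome 5, 122643911 to 122691432, plus strand), whose channel can open a large pore and trigger interleukin-1 beta release in macrophages, averaged 32.1 ± 0.806 CPM in KO (SD, n = 2) and 23.5 ± 1.07 CPM in WT (SD, n = 3). That is a 1.37-fold difference, a log2 fold change of 0.45 with a standard error of 0.11 (edgeR adjusted p = 0.305). It passed in DESeq2 on 6 separate libraries (adjusted p = 0.00108).

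The neighbouring P2rx4 (chromosome 5, 122707544 to 122729738, plus strand), the channel that microglia use in nerve injury pain, was at 27.8, 30.0 and 28.8 CPM in KO and 31.3, 30.2 and 29.8 CPM in WT libraries. KO library 5 lay between WT libraries 3 and 2. With KO libraries 5 and 6 summed, the KO samples lay below the WT samples. On the log2 scale the difference was -0.09 ± 0.10 (standard error, edgeR adjusted p = 0.804). In TPM, P2rx4 exceeded P2rx7 by 2.41, 2.44 and 2.52 times in KO libraries, against 3.85, 3.53 and 3.42 times in WT libraries, with no overlap. P2rx7 alone did not overlap either, so this ratio is not a separate result.

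The P2Y receptors included the smallest p of the 10. P2ry1, the ADP receptor that signals through Gq, had 1540, 1741 and 1737 counts in KO libraries 4, 5 and 6, against 3031, 2772 and 2908 counts in WT libraries. The groups were far apart and the KO libraries close together. P2ry1 (chromosome 3, 61002795 to 61008982, plus strand) averaged 52.7 ± 0.157 CPM in KO (SD, n = 2) and 93.1 ± 6.32 CPM in WT (SD, n = 3), 1.77-fold lower in KO. KO libraries 4, 5 and 6 were at 52.4, 49.9 and 54.3 CPM, a wider spread than the SD over the 2 KO samples.

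The P2ry1 log2 fold change came to -0.82 ± 0.11 (standard error), with an unadjusted p of 0.000184 and an adjusted p of 0.10 in the edgeR quasi-likelihood test. The adjusted p was 0.00936 with 6 separate libraries, 0.0225 with no filter on low counts and 8.40e-07 in DESeq2 on the 5 samples. Leaving out samples moved the log2 fold change between -0.86 and -0.77. Its start overlaps the opposite-strand gene Gm37035.

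P2ry2, a Gq-coupled receptor for ATP and UTP (chromosome 7, 100996568 to 101012866, minus strand), was at 14.1, 18.6 and 19.3 CPM in KO libraries, against 10.6, 16.3 and 10.1 CPM in WT libraries. WT library 2 lay above KO library 4, so the groups overlapped. The log2 fold change of 0.43, with a standard error of 0.24 (edgeR adjusted p = 0.625), was 0.19 without KO libraries 5 and 6 and 0.68 without WT library 2. Nefh, the heavy neurofilament of large neurons, ran in a like order, at 1594, 2331 and 2337 TPM in KO and 1089, 1817 and 1342 TPM in WT libraries, and its part in the result was not tested. In TPM, P2ry1 exceeded P2ry2 by 2.58, 1.90 and 1.98 times in KO libraries, against 6.52, 3.78 and 7.24 times in WT libraries, with no overlap. P2ry1 alone did not overlap either, so this ratio is not a separate result.

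P2ry12 and P2ry14, both Gi-coupled, lie on the minus strand of chromosome 3 within the span of Med12l on the other strand, from 59216272 to 59262871 and from 59113855 to 59153618. P2ry12, a marker of microglia in the central nervous system and also reported in satellite glia, was at 9.49, 7.49 and 5.94 CPM in KO libraries, against 8.51, 6.79 and 6.15 CPM in WT libraries. KO libraries 5 and 6 held 261 and 190 counts of it. P2ry14 had 75, 76 and 67 counts in KO and 89, 57 and 64 counts in WT libraries. The groups overlapped for both genes. Their log2 fold changes were 0.18 and 0.08, with standard errors of 0.21 and 0.24 (edgeR adjusted p = 0.804 and 0.929), and both turned below 0 without KO library 4 (-0.08 and -0.04).

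**Figure D3:**
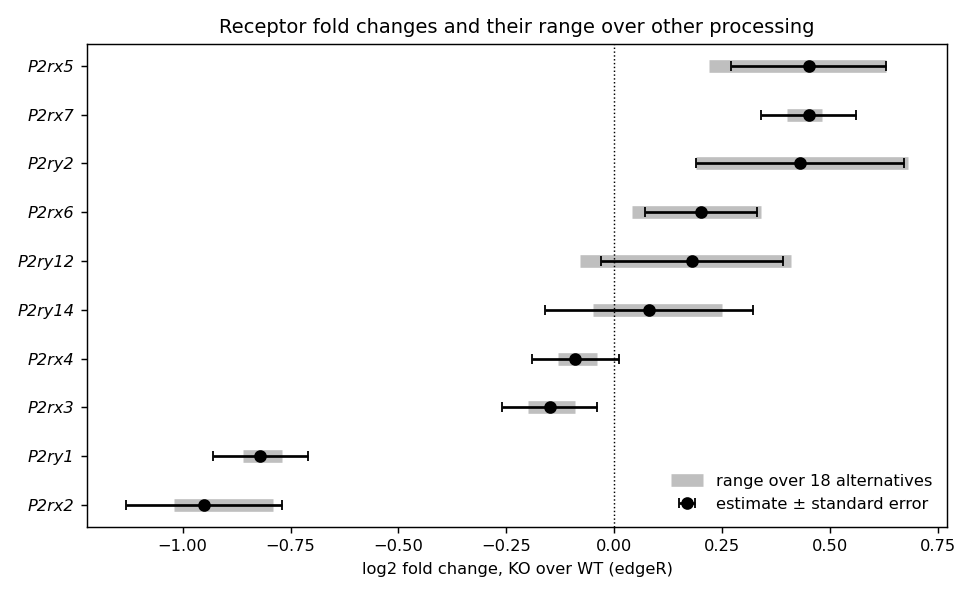
Log2 fold change of each receptor, KO over WT, with its standard error (black) and its range over 18 other ways of processing (grey). P2ry1 stays between -0.86 and -0.77, P2rx2 between -1.02 and -0.79 and P2rx7 between 0.40 and 0.48, while the ranges of P2ry12 and P2ry14 cross 0.

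Markers of the cells that carry these receptors were set beside them. Of 9 markers of non-peptidergic and itch neurons, 8 had a negative log2 fold change, with a median of -0.52 beside 0.001 over all genes tested. By unadjusted p under 0.05, 6 of the 9 were lower, against 4.00% of all genes, and 0 passed the adjusted threshold in edgeR. Their summed level was 660 to 930 TPM in KO and 837 to 1081 TPM in WT libraries, and none was at 0. The largest parts of this sum were Ret, at 172 to 282 TPM in KO and 150 to 243 TPM in WT libraries, and Scn11a. Scn11a was at 159 to 214 TPM in KO and 177 to 251 TPM in WT libraries. Neither was among the 6 lower genes. Ret was the 1 of the 9 with a positive value, at 0.20 on the log2 scale. P2rx3, P2ry1 and the phosphatase gene Acpp are known from these neurons, and the part of the markers in their values was not tested. In whole ganglia, fewer cells of a type and less RNA per cell cannot be told apart. The 8 general neuron markers had a median of 0.11.

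Satellite glia markers, beside P2rx7, P2ry12 and P2ry14, had 6 of 7 positive values with a median log2 fold change of 0.28, and summed to 5657 to 6194 TPM in KO and 5124 to 5579 TPM in WT libraries. Kcnj10, a potassium channel of these cells, was at 38.6, 52.1 and 50.5 TPM in KO and 28.5, 30.2 and 29.6 TPM in WT libraries. Its log2 fold change of 0.61 was the highest of the 7, whereas Cadm1 was at -0.27 with no overlap of the groups. Apoe made up most of the sum, at 4541 to 5070 TPM in KO and 4178 to 4450 TPM in WT libraries. For Schwann cell markers 9 of 10 values were positive, the median being 0.33, and they summed to 6778 to 6996 TPM in KO and 5275 to 6159 TPM in WT libraries. For macrophage and microglia markers 4 of 10 were positive, the median being -0.02, and they summed to 43.3 to 54.8 TPM in KO and 44.9 to 59.1 TPM in WT libraries. In edgeR 0 of these 27 markers passed over all genes, and 7 were higher and 1 lower by an unadjusted p under 0.05, against 5.16% and 4.00% of all genes. Their part in the receptor values was not tested. Of 12 genes of the sensory neuron injury response 12 were positive and 5 passed in edgeR (0.0595% of all genes passed as higher). This list was chosen with earlier results of these data known, so its counts are a description and not a test. The 12 genes summed to 1044 to 1106 TPM in KO and 457 to 495 TPM in WT libraries. Their part in the receptor values was not tested.

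The rest of purine signalling was read from 7 lists of 60 genes by role, of which 52 were tested. By edgeR 0 passed at an adjusted p of 0.05, against 0.0952% of all genes. DESeq2 called 3 on the 5 samples, where it called 1.30% of its genes, and 9 on 6 separate libraries, where it called 5.44%. By an edgeR unadjusted p under 0.05, 6 were higher and 7 lower, against 5.16% and 4.00% of all genes. The median log2 fold change was 0.06. Among 5 other genes tested that carry P2 receptor names, P2ry6, a UDP receptor, had the highest level. It was at 1.22 to 2.30 TPM in KO and 1.11 to 1.64 TPM in WT libraries (log2 fold change 0.48, edgeR adjusted p = 0.670). P2ry10, a receptor of lymphocytes, had 10.5, 7 and 8 counts in KO and 15, 16 and 21.7 counts in WT libraries, at the lower end of what these depths resolve. All 5 lymphocyte markers tested had negative log2 fold changes, with a median of -0.74 and summed levels of 5.54 to 8.02 TPM in KO and 8.07 to 10.2 TPM in WT libraries, and their part in P2ry10 was not tested. P2rx1, the channel of platelets and smooth muscle, had 31, 1 and 7 counts in KO and 11, 8 and 3 in WT libraries. KO library 4 also had the highest summed level of 5 erythroid markers, 59732 TPM against 12738 to 24471 TPM in the other libraries, and of 5 skeletal muscle markers, 43.7 TPM against 2.82 to 15.4 TPM, and their part in P2rx1 was not tested. Endothelial and mural markers summed to 144 to 147 TPM in KO and 157 to 212 TPM in WT libraries (median log2 fold change 0.30, with the pericyte gene Rgs5 at -0.79), and fibroblast markers to 496 to 662 TPM in KO and 572 to 825 TPM in WT libraries (median -0.15).

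Of 10 genes listed for enzymes that act on extracellular nucleotides or adenosine, 2 were higher and 3 lower at an unadjusted p under 0.05. The shares of all genes were 5.16% and 4.00%. Acpp, a phosphatase that makes adenosine from AMP in nociceptors, was at 174, 179 and 178 TPM in KO libraries, against 350, 317 and 303 TPM in WT libraries. The groups were far apart. On the log2 scale the difference was -0.87 ± 0.11 (standard error, edgeR adjusted p = 0.0935), and it passed with 6 separate libraries (adjusted p = 0.00874), with no filter on low counts (adjusted p = 0.0123) and in DESeq2 on the 5 samples (adjusted p = 8.02e-09). Nt5e, the other main AMP phosphatase, was at 38.5 to 39.7 TPM in KO and 44.9 to 53.3 TPM in WT libraries (log2 fold change -0.36, edgeR adjusted p = 0.472). Ada, which deaminates adenosine, was at -0.56. Entpd1, an ATP-degrading enzyme of immune cells and vessels, and Enpp1 were at 0.32 and 0.35 on the log2 scale.

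In adenosine clearance, Adk, the kinase that returns adenosine to AMP, was at 255, 241 and 243 TPM in KO and 359, 325 and 353 TPM in WT libraries. The log2 difference was -0.47 ± 0.11 (standard error, edgeR adjusted p = 0.284), and it passed with 6 separate libraries (adjusted p = 0.0473) and in DESeq2 on the 5 samples (adjusted p = 0.0261). The nucleoside transporters Slc29a1 and Slc29a2 pointed apart, at -0.43 and 0.61 on the log2 scale, each without overlap of the groups (edgeR adjusted p = 0.305 and 0.314). Adora1, the most abundant of 3 adenosine receptors tested, was at 37.0 to 55.7 TPM in KO and 31.4 to 47.9 TPM in WT libraries (log2 fold change 0.13, edgeR adjusted p = 0.872). Panx1, a channel that releases ATP, was at 91.2 to 104 TPM in KO and 92.1 to 110 TPM in WT libraries (log2 fold change -0.07, edgeR adjusted p = 0.872). Gja1, the connexin of satellite glia gap junctions, was at 0.38 on the log2 scale.

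Downstream of P2X7 and P2X4, Bdnf, a neurotrophin that neurons and microglia release, was at 24.8, 30.2 and 29.2 TPM in KO libraries, against 17.8, 18.4 and 20.1 TPM in WT libraries. The log2 difference was 0.56 ± 0.12 (standard error, edgeR adjusted p = 0.253). Bdnf passed with 6 separate libraries (adjusted p = 0.0440) and in DESeq2 on the 5 samples (adjusted p = 0.0106). The 10 genes of this list, which includes the inflammasome, had 5 positive and 5 negative values and a median of 0.02. Mapk14, the p38 kinase and the most abundant of them, was at 51.7 to 63.2 TPM in KO and 48.5 to 54.5 TPM in WT libraries (log2 fold change 0.15, edgeR adjusted p = 0.729). Downstream of P2Y receptors, Itpr3, a calcium release channel, was at 0.78 and Rgs4, which shortens Gq and Gi signals, at -0.49 on the log2 scale (edgeR adjusted p = 0.440 and 0.373).

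**Figure D4:**
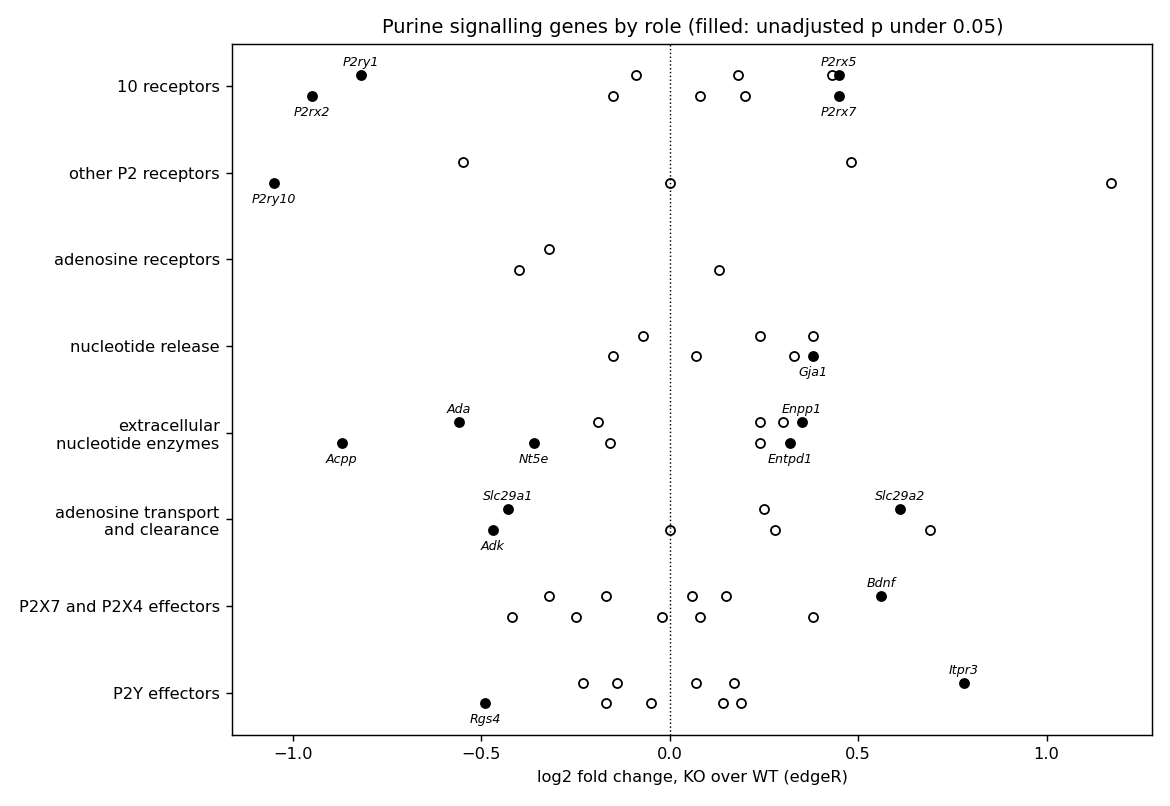
Log2 fold changes, KO over WT, of the 10 receptors and of the genes tested in 7 purine signalling lists, 1 row per list; filled and named points have an unadjusted p under 0.05. Named points lie on both sides of 0, and Acpp at -0.87 lies close to P2ry1 at -0.82.

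The mean transcript length that RSEM gave for each gene, which moves with the mix of isoforms, overlapped between KO and WT libraries for 8 of 10 receptors and was fixed for the other two. P2ry1 and P2rx5 had one value, 3886 and 2395 bases, in every library. P2ry2 was at 2707, 2780 and 2749 bases in KO libraries, against 2983, 2764 and 2872 bases in WT libraries, where WT library 2 lies inside the KO range. P2rx4 ranged from 1512 bases in WT library 1 to 1768 bases in WT library 2.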

How the data were processed

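Total RNA with an RNA integrity number above 8.0 was made into stranded mRNA libraries, per the labels' protocols. Trimmomatic 0.38, STAR 2.6.0a, RSEM 1.3.0 and GRCm38 are the tools and build named in the submitters' processing notes. Which annotation release and strand setting were used is not given in the sources used here. Per gene, the authors deposited RSEM expected counts, which are not normalized, and TPM. Mean transcript lengths, in bases, were read from the deposited table as a signal per gene; the 6 FPKM columns were not used. Symbols and positions came from GENCODE vM21 on GRCm38, which matched 35243 of 36793 identifiers; the 1550 unmatched held 0.224 to 0.263% of counts.

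Expected counts were rounded, filtered with filterByExpr, scaled by TMM and compared in edgeR 4.0.16 (R 4.3.3) by quasi-likelihood F tests, genotype as the only term, two-sided, with Benjamini-Hochberg adjustment over 16810 genes at 0.05. Standard errors are the absolute log2 fold change over the square root of the F statistic, approximate at low counts. KO libraries 5 and 6 were summed as 1 sample, after a chi-square check over genes with whole counts (tolerance 1e-09) and a mean of at least 20. The labels give only mouse numbers. Each p-value sets the difference between the groups against the spread among these samples, which may be technical. The procedure was tested on simulated data. limma 3.58.1, DESeq2 1.42.0, other scalings, filters and left-out libraries were alternatives. P2X shares were compared by exact permutation.

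The text names all 10 receptors, the targeted gene, and members of the pathway lists with an unadjusted p under 0.05 or the highest TPM in their list. The nerve injury genes are given only as counts and a summed level. P2rx1, Nefh, Kcnj10, Cadm1, Apoe, Ret, Scn11a and Rgs5 were chosen after their values were seen. The receptors and lists were chosen with earlier results of these data known.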

Additional observations from a re-analysis of the deposited data

How the results depend on the processing

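No paired analysis was possible because KO mice carry the numbers 4 to 6 and WT mice 1 to 3. The GC correction and DESeq2 on 6 libraries were added after seeing the data. The count of 16 genes past the edgeR threshold became 144 with 6 separate libraries, 81 with no filter, 243 in DESeq2 on the 5 samples, 860 in DESeq2 on 6 libraries, 28 with GC correction, and 7 to 16 with replicates left out (8 without WT 2, 10 without WT 3, 7 without KO 4). The count of 0 receptors became 2 with 6 separate libraries, 1 with no filter, 2 in DESeq2 on the 5 samples and 3 in DESeq2 on 6 libraries, and stayed at 0 to 0 with replicates left out; by construction, 6 libraries count the near-identical pair as separate animals. The count of 0 purine pathway genes became 3, 1, 3 and 9 under the same 4 settings and 1 with GC correction. The cause was not tested for the others. The P2rx3 share of P2X transcripts, -2.87 percentage points, ran from -4.77 on counts to -2.11. Direction turned for P2ry14 (main log2 fold change 0.08, but -0.05 without WT 2 and -0.04 without KO 4, and up to 0.25 with other replicates left out), P2ry12 (0.18, but -0.08 without KO 4, 0.34 without WT 1 and up to 0.41 without KO 5 and 6), Adora1 (0.13, but -0.03 without WT 1 and -0.15 without KO 5 and 6, and up to 0.37), Panx1 (-0.07, but 0.01 without WT 2 or without KO 4, -0.11 without WT 3 and down to -0.15 without KO 5 and 6) and Grin1 (0.21, but -0.07 without KO 5 and 6). Of the other receptor values 169 kept direction and side of the threshold and 8 gained the call, and of those of other named genes 302 and 17. Without KO 4, or 5 and 6, the lone KO sample was assumed to vary like WT. Depth limits P2ry10 and P2rx1, with at most 31 counts in a library.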

Other observations

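RSEM's mean transcript length was longest in KO library 5 and WT library 2 for both P2rx4 and P2rx7. P2rx4 was at 1578, 1767 and 1675 bases in KO libraries 4, 5 and 6, and at 1512, 1768 and 1562 bases in WT libraries 1, 2 and 3. P2rx7 was at 4296, 4496 and 4308 bases in KO libraries, and at 4186, 4487 and 4246 bases in WT libraries. KO libraries 5 and 6, whose gene counts came close to sampling noise, differed in this length by 92 bases for P2rx4 and by 189 bases for P2rx7.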
